A study of Danio rerio with 20 samples.

Results

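The loci described here are among those of the zebrafish heart apex whose values were highest at 3 days post cryoinjury (dpci), above every library of every other time point. Of the 66128 loci listed, 914 had every library at 3 dpci above the other 16, and the 79 described here met the whole rule. They were selected on measured values: a mean of at least 100 over the 20 libraries, a non-injured mean of at least 5, the lowest of the 4 libraries at 3 dpci above the highest of the other 16, and a mean log2(value + 1) at 3 dpci at least 1 above that of the highest other group. The 100 loci highest in non-injured hearts were left out. Up to 150 loci could have been taken, in order of that difference, but the rule found no more than 79. A value is the number of reads counted on a locus, divided by 1 size factor for its library. It is not divided by locus length, so a longer locus gets a higher value, and where loci are ordered by value below the order is one of reads and not of transcripts.

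Ventricular apexes were collected from non-injured hearts and at 1.5, 3, 7 and 14 dpci, with 4 libraries in each of these 5 groups. Each library came from 3 to 4 pooled apexes of WT zebrafish, male and female fish of 5 to 12 months of age. The groups differed in whether the apex had been cryoinjured and in the time since the injury. The non-injured hearts had no cryoinjury, and no sham operation is named for them. Because apexes were pooled and nothing names the tubes as separate experiments, p-values measure the spread between these pools only.

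Cryoinjury kills the ventricular apex with a frozen probe and leaves dead tissue that the zebrafish heart clears and replaces with new muscle. In the first days, neutrophils and macrophages are known to enter the wound, and the epicardium and endocardium to become active around it. Later, cardiomyocytes at the wound border divide and the temporary scar is removed. A transcript with its highest level early after injury can belong to any of these processes, and in bulk tissue more cells of a type and more RNA per cell cannot be told apart.

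None of the 79 loci could be given a gene name. The table has a column of gene names, but the names stand in another order than the locus numbers and do not belong to the rows beside them. Position, sequence and function of the loci, and markers of the heart or of blood cells, were for this reason not used here. Loci are called by their number in the assembly where they are named, and by their values otherwise.

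**Figure D1:**
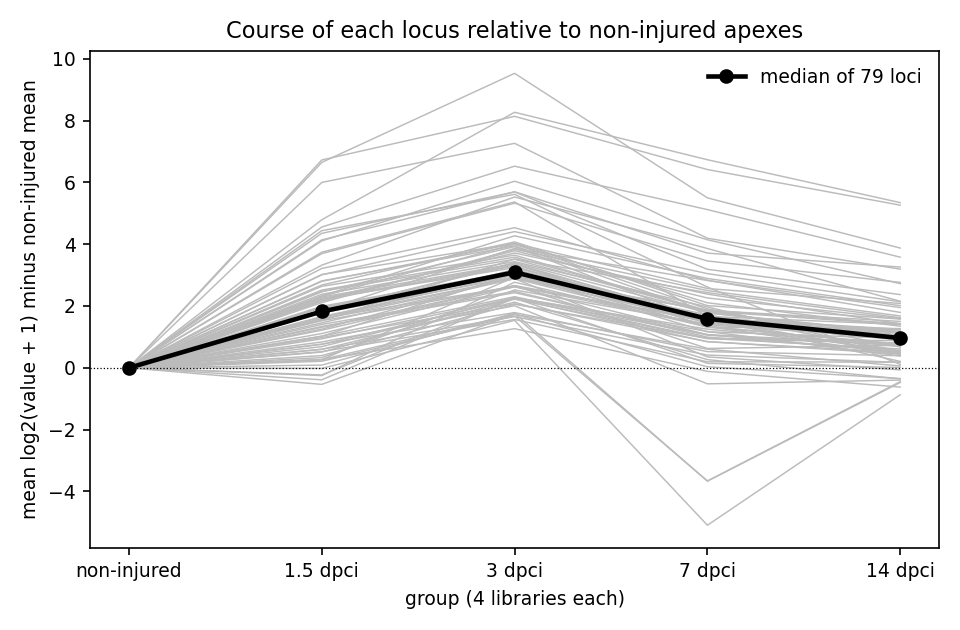
Each grey line is 1 of the 79 loci, drawn as the mean log2(value + 1) of each group minus that of the non-injured group, with 4 libraries per group; the black line is the median of the loci. The median goes from 1.82 at 1.5 dpci to 3.09 at 3 dpci and then to 1.58 and 0.96 at 7 and 14 dpci, while 3 loci drop far below 0 at 7 dpci.

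The course of most of these loci was a climb to 3 dpci and a slower return. The median of the loci's mean values was 121 in non-injured apexes, 450.1 at 1.5 dpci, 1036 at 3 dpci, 328 at 7 dpci and 237 at 14 dpci. Of the 79 loci, 67 had the order of non-injured lowest, then a higher mean at 1.5 dpci, the highest at 3 dpci, a lower one at 7 dpci and a still lower one at 14 dpci, by mean log2(value + 1). The non-injured group was the lowest in 68 loci. The rule itself set 3 dpci as the highest group, and neither count was made over other loci, so both are a description. Among the 16187 loci of the table with the same minimum mean and non-injured mean, the median value was 466 in non-injured apexes and 476 at 3 dpci.

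How far the loci stood out at 3 dpci was part of the rule and is given as a description. The mean at 3 dpci was at least 2 times the non-injured mean in 77 loci, at least 4 times in 69, at least 8 times in 42 and at least 32 times in 11. On the log2 scale the difference to non-injured apexes ran from 1.27 to 9.53. The difference to the next highest group was narrower, with a median of 1.25 and a highest value of 2.88, and reached 1.5 in 18 loci and 2 in 2. By the limma fit 75 of the 79 were higher at 3 dpci than in non-injured apexes, against 12.9% of all loci tested. Because that contrast chose the loci, nothing is read from the count.

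The edges of the rule were close on both sides. The smallest difference to the next group was 1.003 among the 79, and the nearest locus left out by it alone had 0.999. The lowest mean over the 20 libraries was 102.4, against 99.5 for the nearest locus outside. The lowest non-injured mean was 6.46 inside and 4.67 outside. The lowest library at 3 dpci was 1.01 times the highest of the other 16 at the inner edge and 0.9995 times at the outer, with a median of 1.22 and a highest value of 2.78 among the 79. Another 235 loci missed the rule only by the size of the difference, 128 only by the mean, 68 only by an overlapping library and 4 only by the non-injured mean.

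Which group came next to 3 dpci divided the loci. By mean log2(value + 1), the next highest group was 1.5 dpci in 48, 7 dpci in 30, the non-injured group in 1 and 14 dpci in none of the 79. In the 48 loci the median difference to non-injured apexes was 1.97 at 1.5 dpci, 3.26 at 3 dpci, 1.54 at 7 dpci and 0.96 at 14 dpci, all as log2(value + 1). In the 30 loci it was 1.39, 2.94, 1.60 and 1.08 at the same times. At 3 dpci the median mean value was 1090 in the 48 and 1095 in the 30. The grouping is itself drawn from the values at 1.5 and 7 dpci, so these medians describe it and test nothing.

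The loci covered a wide range of read numbers. The mean over the 20 libraries had a median of 469 and ran from 102 to 37973, with 20 loci at 1000 or more and 6 at 10000 or more. A few loci held most of the reads: at 3 dpci the 5 loci with the highest values took 67.0% of the sum over the 79, and the first 10 took 83.6%. All 79 had a value of 10 or more in at least 4 libraries, as had 61.6% of all loci tested. The 4 libraries at 3 dpci met this alone, with a lowest value of 147. The selection thus settled the count, and nothing is read from it. In 78 loci every library had reads.

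**Figure D2:**
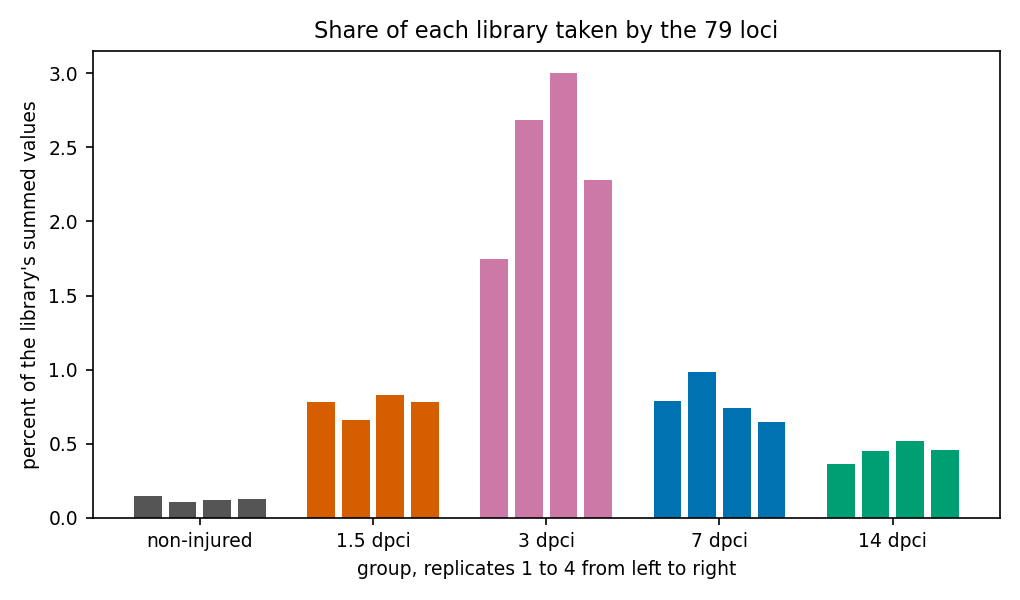
Bars give the sum of the 79 loci as a percent of all values of each library, with the 4 replicates of each group from left to right. The 4 libraries at 3 dpci stand between 1.74% and 3.00%, above all others, and the non-injured libraries stay below 0.15%. The loci were chosen for being highest at 3 dpci, so the height there is a description.

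Together the 79 loci made up 0.125% ± 0.016 (SD, n = 4) of the values in non-injured libraries. The share was 0.763% ± 0.070 at 1.5 dpci, 2.43% ± 0.54 at 3 dpci, 0.790% ± 0.143 at 7 dpci and 0.447% ± 0.064 at 14 dpci. That it was highest at 3 dpci follows from the rule. The ranges of 1.5 dpci (0.663% to 0.826%) and 7 dpci (0.643% to 0.983%) overlapped. At 14 dpci the lowest library had 0.362%, still above the highest non-injured library with 0.146%.

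The 4 libraries at 3 dpci were not alike in these loci. Their shares were 1.74%, 2.68%, 3.00% and 2.28% in replicates 1 to 4. Replicate 1 was the lowest library of its group in 61 of the 79 loci, against 44.2% of the 16187 loci, and replicate 3 was the highest in 52, against 42.4%. The median deviation from the group mean, in log2(value + 1), was -0.44 in replicate 1 over the 79 loci and -0.10 over the 16187. Because the rule asks for the lowest library at 3 dpci to exceed all others, replicate 1 set the edge for most loci: without it 144 loci met the rule, 77 of the 79 among them. What sets replicate 1 apart, and its part in the values at 3 dpci, was not tested.

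Within groups the 79 loci varied more than the 16187 loci with the same minimum means. The median SD of log2(value + 1) was 0.53 in non-injured apexes, 0.33 at 1.5 dpci, 0.41 at 3 dpci, 0.38 at 7 dpci and 0.55 at 14 dpci. Over the 16187 loci it lay between 0.21 and 0.25 in the 5 groups. The sets were not matched by level. The median of the mean values was 121 against 466 in non-injured apexes and 1036 against 476 at 3 dpci. The part of the level in this spread was not tested. The values at 3 dpci chose the loci, so their spread there is a description.

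The question at the other time points was whether these loci stood above non-injured apexes there too. The rule set no order between those groups, but it held each of their libraries below the lowest library at 3 dpci. The groups were tested with limma on log2(value + 1) over all 62594 loci with a value above 0. The fit was 1 model of all 20 libraries, with Benjamini-Hochberg adjustment at 0.05. All 3 comparisons with non-injured apexes share the same 4 control libraries. Each count is set beside the share of loci called over the whole table. Neither those loci nor the 16187 with the same minimum means were chosen by their height at 3 dpci. The 16187 were also not matched by level, with a median non-injured mean of 466 against 121 in the 79. What the rule and the level add to the gap between the shares was not tested, so the gap is a description.

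At 1.5 dpci, 60 of the 79 loci rose and none fell. This was 75.9% of them, against 12.8% of all loci tested and 17.0% of the 16187 loci with the same minimum means. Falls made up 10.1% of all loci tested and 24.2% of the 16187, and among the 79 edgeR on recovered reads also called no fall. In either direction 64 of the 79 had an unadjusted p under 0.05 in limma. The share over all loci was not counted for that threshold, so nothing is read from it. The rises ran from 0.68 to 6.73 on the log2 scale, with a median of 2.17 and a median standard error of 0.34. In 60 loci all 4 libraries at 1.5 dpci lay above all 4 non-injured libraries, which held for 19.0% of the 16187. The 19 loci that did not pass had differences from -0.54 to 1.11, and 14 of them were above 0. Leaving out any 1 of the 8 libraries compared gave 57 to 60 calls.

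At 7 dpci, 59 of the 79 rose and 3 fell. Rises were 74.7% of the loci, against 6.43% of all loci tested and 9.56% of the 16187. The 3 falls were 3.80% of the loci, against 5.45% of all loci tested and 8.32% of the 16187. Rises ran from 0.84 to 6.73 with a median of 1.78 and a median standard error of 0.32. All 4 libraries at 7 dpci lay above all 4 non-injured libraries in 60 loci, against 9.61% of the 16187. The 17 loci without a call ran from -0.52 to 1.66.

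At 14 dpci, 38 of the 79 loci still stood above non-injured apexes past the threshold and none stood below. This was 48.1%, against 5.88% of all loci tested and 7.73% of the 16187. Lower calls were 6.63% of all loci tested and 9.03% of the 16187, and edgeR too called none of the 79 lower. In either direction 52 of the 79 had an unadjusted p under 0.05 in limma, a threshold for which the share over all loci was not counted. The called differences ran from 0.69 to 5.34, with a median of 1.54 and a median standard error of 0.32. In 34 loci the 4 libraries at 14 dpci lay above all non-injured ones, as in 8.89% of the 16187. The 41 loci that did not pass ran from -0.87 to 1.40, and 33 of them were above 0.

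The choice of non-injured libraries bore on the later counts. Replicates 3 and 4 were the most alike non-injured pair, with a chi-square per degree of freedom of 13.6 on recovered reads, against 36.5 to 51.2 for the other 5 pairs. Set against replicates 1 and 2 alone, 37 loci rose at 7 dpci and 20 at 14 dpci, and none fell. Set against replicates 3 and 4 alone, 58 rose and 4 fell at 7 dpci, and 37 rose and 1 fell at 14 dpci. The count over all loci moved with them. At 7 dpci 1035 loci were called higher and 370 lower with the first pair, and 6563 and 5571 with the second. At 14 dpci 517 were called higher and 507 lower with the first pair, and 6406 and 6257 with the second, against 3679 higher with all 4. At 1.5 dpci the first pair gave 57 rises and no fall, and the second 56 rises and 1 fall. Over all loci these were 5694 rises and 5457 falls with the first pair, and 6421 and 5598 with the second. In the 79 loci replicates 3 and 4 were both below replicates 1 and 2 in 14 and both above in 16, against 17.9% and 22.5% of the 16187.

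Taken as a share of the log2 difference reached at 3 dpci, the median over the loci was 56.8% at 1.5 dpci, 49.7% at 7 dpci and 31.5% at 14 dpci. The rule chose loci by their height at 3 dpci over every other group. It therefore bounds these shares from above, and they are a description. From 7 to 14 dpci the differences of single loci ran from -2.50 to 4.22 in log2(value + 1). The mean at 14 dpci was below that at 7 dpci in 74 of the 79, against 48.1% of the 16187, with a median difference of -0.54. Past the threshold 4 loci fell and none rose, which is 5.06% of the loci against 0.299% of all loci tested and 0.704% of the 16187 for falls, and 0.105% of all loci tested for rises. By limma 34 of the 79 had an unadjusted p under 0.05, but the share over all loci was not counted for that threshold. The edgeR fit called 3 falls and no rise. The count of 4 rested on single libraries: it was 2 without 7 dpci replicate 2, 2 without 14 dpci replicate 2 and 8 without 7 dpci replicate 4, 2 of those 8 being rises.

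The largest of these falls was in a locus with an early rise whose values at 14 dpci reached back into the non-injured range. Its non-injured values were 37.9, 62.2, 55.4 and 46.7, and its values at 1.5 dpci were 1279, 1312, 1187 and 726. At 3 dpci it had 2072, 2786, 2092 and 3141. At 7 dpci its values were 342, 465, 334 and 172, and at 14 dpci 71.5, 61.8, 59.3 and 31.7. From 7 to 14 dpci it fell by 2.50 ± 0.28 (SE) on the log2 scale (adjusted p = 0.000383, limma), and at 14 dpci its range overlapped that of non-injured apexes (difference 0.11, adjusted p = 0.848, limma). It also fell from 1.5 to 7 dpci, by 1.82 (adjusted p = 0.000128, limma).

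The other 3 falls from 7 to 14 dpci were of 1.71, 1.39 and 1.08 on the log2 scale (adjusted p = 0.0483, 0.00969 and 0.0163, limma). At 7 dpci the first of these loci had 206, 244, 226 and 176, and by 14 dpci its libraries held 42.9, 56.7, 113 and 61.4. The groups do not overlap, and at 14 dpci the locus remained above non-injured apexes (7.76 to 36.5; adjusted p = 0.00117, limma). In the second the 4 libraries at 14 dpci, from 32.2 to 61.8, lay within reach of the non-injured ones, from 27.7 to 46.7, and below those at 7 dpci, from 97.5 to 159. In the last of them the libraries ran from 624 to 941 at 7 dpci, from 343 to 384 at 14 dpci and from 193 to 319 before the injury, so that at 14 dpci they lay just above the non-injured range.

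**Figure D3:**
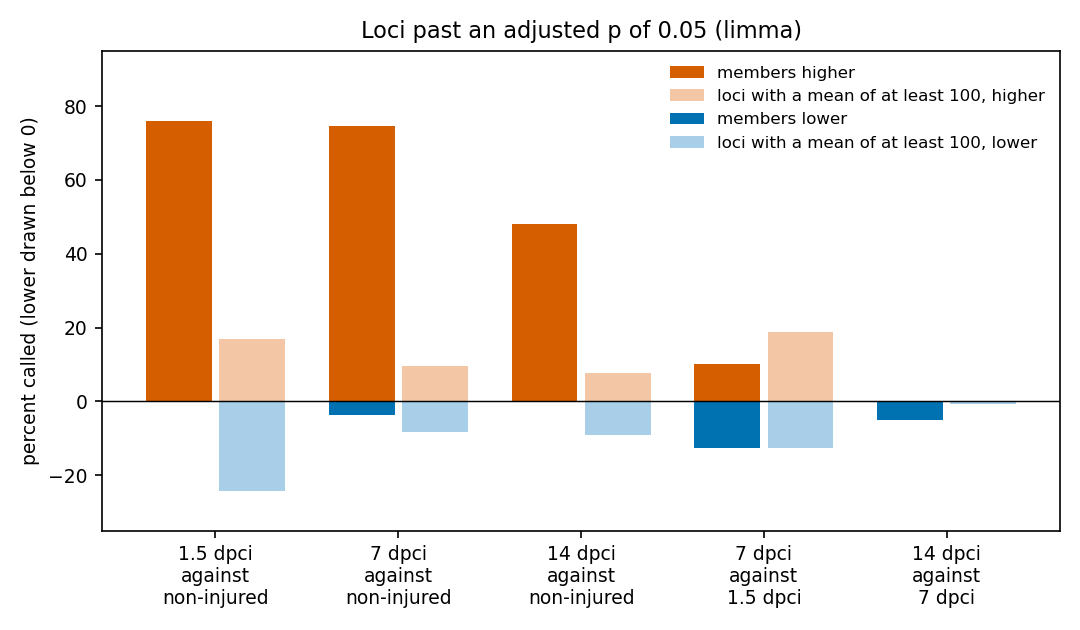
Percent of loci past an adjusted p of 0.05 in 5 comparisons by limma, with higher calls above 0 and lower calls below; dark bars are the 79 loci and pale bars the 16187 loci with the same minimum means. In the comparisons of 1.5, 7 and 14 dpci with non-injured apexes the dark bars for higher calls reach 75.9%, 74.7% and 48.1%, while between 1.5 and 7 dpci they are close to the pale ones or below them.

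The sides of the peak, 1.5 and 7 dpci, were also compared with each other, a test added after the data had been seen. Here 8 loci were higher at 7 dpci and 10 were lower. These are 10.1% and 12.7% of the loci, against 12.1% and 13.9% of all loci tested and 18.7% and 12.7% of the 16187, so that the shares were near or under the background. The median difference over the 79 was -0.27 (log2). The 8 higher calls ran from 0.57 to 1.94 and the 10 lower calls from -0.79 to -5.08.

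XLOC_040406 had the largest distance between 3 dpci and the next group, 2.88 on the log2 scale. Its non-injured values were 11.4, 9.88, 2.22 and 2.39, the last pair standing for 2 reads each. At 1.5 dpci it had 780.0, 564, 974 and 343. At 3 dpci it had 2707, 6133, 6736 and 3900.1, at 7 dpci 532, 255, 169.7 and 262, and at 14 dpci 40.5, 93.2, 139 and 123. The locus was close to silent before the injury, and no library of any injured group overlapped the non-injured ones. It rose at 1.5 dpci by 6.65 ± 0.50 (SE; adjusted p = 4.86e-08, limma), and stood higher at 7 dpci by 5.50 (adjusted p = 2.41e-06, limma) and at 14 dpci by 3.87 (adjusted p = 0.000133, limma). Between 7 and 14 dpci the difference of -1.62 did not pass (adjusted p = 0.180, limma), although the libraries of both groups did not overlap. From 1.5 to 7 dpci the difference was -1.15 (adjusted p = 0.101, limma) and passed only in edgeR (-1.50, adjusted p = 0.0303, edgeR). The edgeR run lacks 7 dpci replicate 1, which at 532 was the highest library of its group. Limma on the same 19 libraries was among the runs that did not pass. Why the fits differ was not tested.

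**Figure D4:**
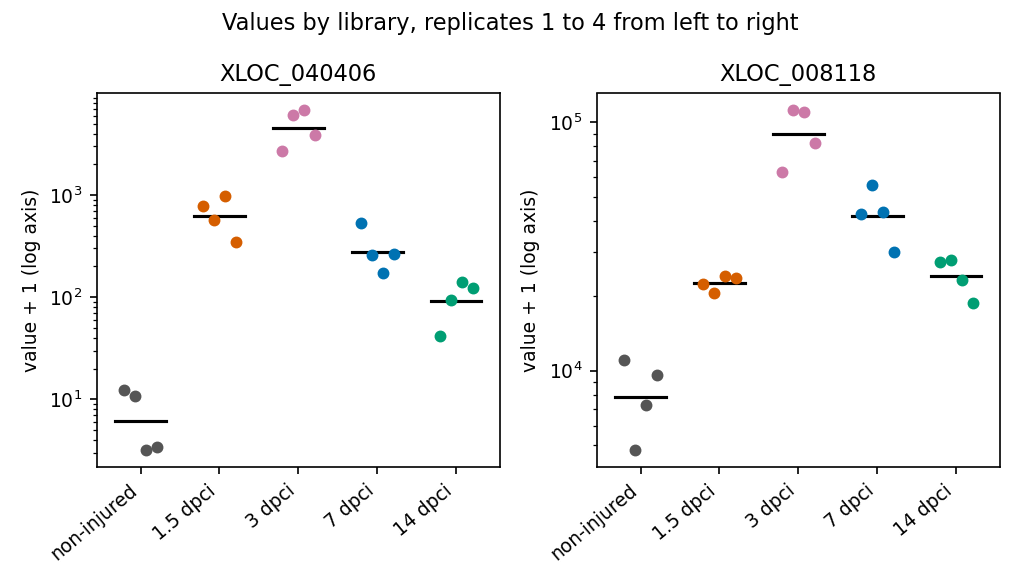
Values plus 1 of XLOC_040406 and XLOC_008118 in the 20 libraries on a log axis, replicates 1 to 4 from left to right, with a bar at the mean of log2(value + 1). XLOC_040406 climbs from values of 2.22 to 11.4 to a range of 2707 to 6736 at 3 dpci; XLOC_008118 starts from 4800 to 11010 and reaches 63151 to 111753.

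XLOC_008118 had the highest mean at 3 dpci and had high values already before the injury. Its non-injured values were 11010, 4800, 7280 and 9568, and at 1.5 dpci it had 22381, 20568, 23935 and 23495. At 3 dpci it had 63151, 111753, 110070 and 82296, at 7 dpci 42665, 55767, 43639 and 30026, and at 14 dpci 27306, 27880, 23090 and 18774. All injured libraries lay above all non-injured ones, and those at 1.5 and 14 dpci overlapped with each other. It rose by 1.53 ± 0.23 (SE) at 1.5 dpci, by 2.43 at 7 dpci and by 1.62 at 14 dpci (adjusted p = 7.27e-05, 2.36e-06 and 0.000241, limma). At 7 dpci it was 0.90 higher than at 1.5 dpci (adjusted p = 0.0074, limma), a difference of 0.40 with quantile normalization (adjusted p = 0.0689, limma).

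The locus with the next highest mean at 3 dpci had nearly the same values. Its means were 6406 ± 1950 (SD, n = 4) in non-injured apexes, 22348 ± 1092 at 1.5 dpci, 91215 ± 17941 at 3 dpci, 44987 ± 12092 at 7 dpci and 24065 ± 3713 at 14 dpci. The value of XLOC_008118 divided by that of this locus ran from 0.914 to 1.31 over the 20 libraries, with a median of 1.02. The locus numbers of the pair lie 35529 apart. Whether reads were shared between these loci cannot be seen in the table.

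In the other 4 loci with a mean of at least 10000 the mean at 3 dpci was 14.5 to 238 times the non-injured mean, against 11.2 and 14.2 times in that pair. One rose from a non-injured mean of 193 ± 127 to 16514 ± 2599 at 1.5 dpci, a rise of 6.73 ± 0.50 (SE) in log2(value + 1) (adjusted p = 1.13e-07, limma). At 3 dpci it had 45926 ± 15999.6, which is 238 times the non-injured mean, at 7 dpci 13249 ± 1363 and at 14 dpci 6743 ± 3158. Its non-injured libraries ranged from 45.5 to 352, and the lowest injured library, 14 dpci replicate 1, had 2276. The remaining 3 had means at 3 dpci of 89442, 61525 and 51927, which are 48.6, 14.5 and 65.1 times their non-injured means.

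The locus with the largest differences to non-injured apexes at 7 and 14 dpci, in log2(value + 1), had 105, 12.8, 27.7 and 39.5 in non-injured apexes and between 778 and 1164 at 1.5 dpci. At 3 dpci its values were 6127, 11843, 17557 and 12085. They were 3306 to 4365 at 7 dpci and 666 to 2212 at 14 dpci. It rose by 4.79 at 1.5 dpci, by 6.73 at 7 dpci and by 5.34 at 14 dpci, with a standard error of 0.48 each (adjusted p = 1.74e-06, 2.67e-07 and 6.59e-06, limma). It was higher at 7 than at 1.5 dpci by 1.94 (adjusted p = 0.00652, limma).

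The locus second in distance to the next group, 2.11 on the log2 scale, stood apart from non-injured apexes at 3 dpci and passed the threshold at none of the other 3 times. Its values at 3 dpci were 398, 625, 526 and 349. It had 79.6, 61.2, 188 and 93.4 in non-injured apexes, 71.2, 64.6, 30.7 and 202 at 1.5 dpci, 100.2, 108, 45.4 and 258 at 7 dpci and 63.2, 52.7, 141 and 187 at 14 dpci. Outside 3 dpci all 4 groups overlapped, with differences to non-injured apexes of -0.39 at 1.5 dpci, 0.14 at 7 dpci and 0.01 at 14 dpci (adjusted p = 0.663, 0.909 and 1.0, limma). The standard error of 0.55 for each leaves room for differences of that size in either direction.

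**Figure D5:**
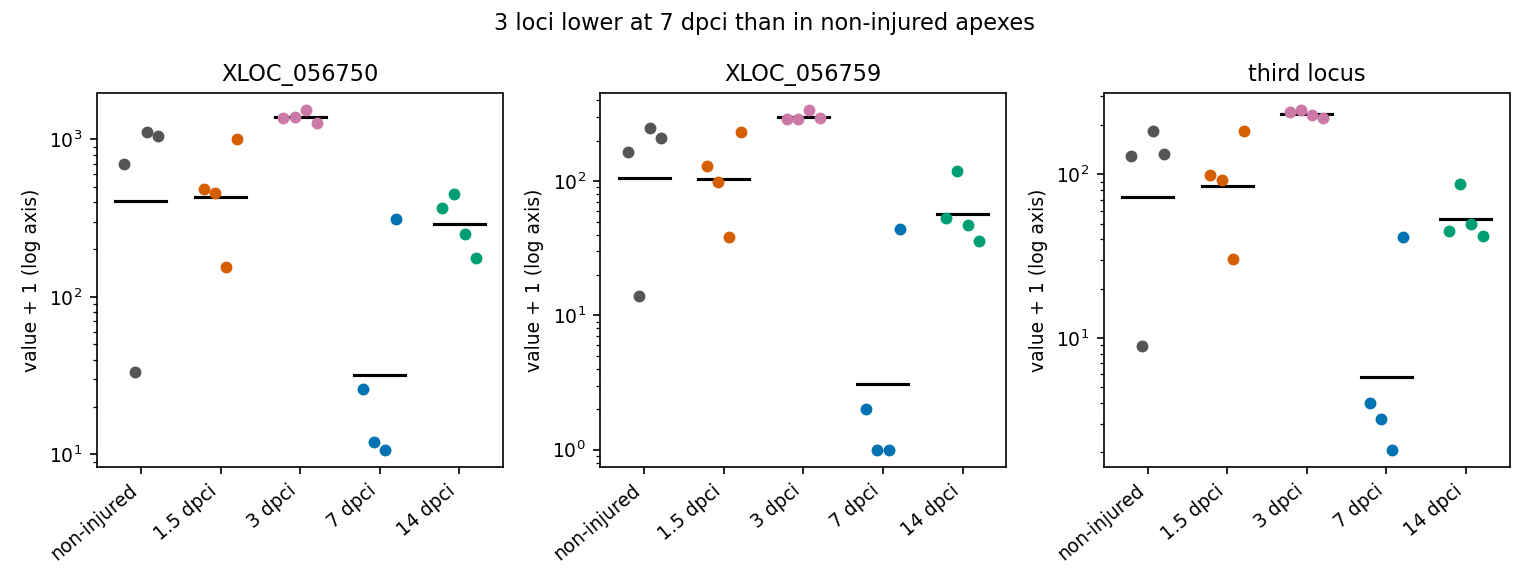
Values plus 1 of the 3 loci called lower at 7 dpci against the non-injured group, on a log axis, replicates 1 to 4 from left to right, with a bar at the mean of log2(value + 1). In each locus non-injured replicate 2 lies far below the other non-injured libraries and 7 dpci replicate 4 far above the other libraries at 7 dpci.

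The 3 loci that fell at 7 dpci had like shapes and lie close together in locus number, so they are not separate observations. Their share of the 79, 3.80%, was under the 5.45% called lower over all loci tested. XLOC_056759 was also the locus whose next highest group by mean log2(value + 1) was the non-injured one; by the mean of the values themselves the same held for both of the others and for 1 more of the 79. Its non-injured values were 165, 12.8, 249 and 208, and its values at 1.5 dpci were 130, 97.5, 37.5 and 229.8. At 3 dpci they were 292, 288, 336 and 297, narrow and above all others. At 7 dpci it had 1.0, 0, 0 and 43.2, and at 14 dpci 52.5, 117, 46.5 and 34.8. The values at 7 dpci were far apart, with 0 reads in replicates 2 and 3 and 45 reads in replicate 4. Against non-injured apexes the difference at 7 dpci was -5.09 (adjusted p = 0.00525, limma), a fitted value that depends on the pseudocount because 2 libraries are at 0. Against 1.5 dpci it was -5.08 (adjusted p = 0.0022, limma), a description, since the locus was picked for its low values at 7 dpci.

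XLOC_056750 had a like shape at a higher level. Its non-injured values were 693, 32.6, 1109 and 1048, and at 1.5 dpci it had 482, 454, 155 and 1010.4. At 3 dpci its values were 1365, 1383, 1525 and 1261. It dropped to 25.0, 11.0, 9.73 and 310.3 at 7 dpci and had 365, 452, 249 and 175 at 14 dpci. Non-injured replicate 2 was low and 7 dpci replicate 4 high, as in XLOC_056759, so that the 2 groups overlapped. At 7 dpci it was lower than non-injured apexes by -3.67 (adjusted p = 0.0376, limma).

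The third locus had 129, 7.90, 183 and 132 in non-injured apexes, 218 to 244 at 3 dpci and 3.0, 2.19, 1.08 and 40.3 at 7 dpci. Its difference at 7 dpci was -3.66 (adjusted p = 0.0139, limma). With 2 reads in 7 dpci replicate 2 and 1 read in replicate 3, this fitted value too depends on the pseudocount. All 3 loci lie within 12 locus numbers of one another. Where the locus divided by had a value of at least 10, XLOC_056750 was 2.54 to 7.18 times XLOC_056759, and XLOC_056759 was 0.85 to 1.58 times the third locus. None of the 3 was higher at 3 dpci than in non-injured apexes past the threshold, and they make up 3 of the 4 such loci among the 79. Their falls were not called by edgeR on the 19 libraries with recovered reads (adjusted p = 0.0779, 0.161 and 0.0798 in the order above, edgeR) and not by limma on only the 8 libraries compared (adjusted p = 0.0808, 0.206 and 0.117, limma), nor against non-injured replicates 1 and 2 alone. The call of XLOC_056750 was lost without non-injured replicate 1, 3 or 4 and without 7 dpci replicate 1, 2 or 3, with adjusted p between 0.0718 and 0.120 (limma). From 7 to 14 dpci the 3 loci differed by 4.22, 3.19 and 3.21 on the log2 scale, which did not pass (adjusted p = 0.0917, 0.238 and 0.137 for XLOC_056759, XLOC_056750 and the third, limma); without 7 dpci replicate 4 the first and the last passed (adjusted p = 0.00473 and 0.0215, limma). The fall of the third locus at 7 dpci was lost without non-injured replicate 3 or 4 (adjusted p = 0.0548 and 0.0512, limma).

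Locus numbers of the members are given as a description, and how often other loci lie as near one another was not counted. None of the 79 had another of them at the next number, and 6, in 3 pairs, had another within 5 numbers, one of these pairs being XLOC_056759 and the third locus. In a second pair the value of 1 locus over the other ran from 0.360 to 2.93 over the 20 libraries, and in the last from 0.00426 to 0.0364. The first 33064 locus numbers of the table held 47 of the 79 loci and 52.4% of the 16187.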

How the data were processed

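The authors pooled 3 to 4 apexes per tube, and library preparation (stranded total RNA), sequencing and analysis were done by a service provider. The genome was GRCz10 (Ensembl 90), the tools were Cufflinks, Cuffmerge and Cuffdiff, and values were scaled by the geometric-mean method. The study names FPKM, whereas what the authors deposited is a normalized signal, reads per locus divided by a size factor of the library and not by length. In 19 libraries the value of 1 read was found from the low values, and 99.96% to 99.99% of values were whole within 0.1 read, giving 19349169 to 32939802 reads per library (median 25300568). Reads of 7 dpci replicate 1, where 1 read is worth nearly 1, were not recovered. Replicates differed by more than sampling noise in each of the 27 pairs with recovered reads (chi-square per degree of freedom 12.4 to 70.0).

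Loci were tested by limma 3.58.1 under R 4.3.3, using statmod 1.5.0 (lmFit, then eBayes, trend and robust), on log2(value + 1), which understates the change of low loci. The script was tested on simulated data. edgeR 4.0.16 (quasi-likelihood) on recovered reads, other pseudocounts (0.1 and 5), TMM and quantile scaling, a filter that asked 4 libraries for 10 or more, a fit of only the 8 libraries compared, pairs of controls, a replicate block and leaving out each library were alternatives. The comparison of 7 with 1.5 dpci and limma on 19 libraries were chosen after seeing the data.

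The members, the tests and the lists were chosen with earlier results of these data known. Loci named by number were the one with the largest difference to the next group, the one with the highest mean at 3 dpci, and the largest falls called at 1.5 and 14 dpci, of which there were none; the falls at 7 dpci, and other loci described singly, were chosen after their values were seen.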

Additional observations from a re-analysis of the deposited data

Results flagged for a closer look

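In non-injured apexes 1 library lay far from the other 3 in the 3 loci that fell at 7 dpci. It was replicate 2 each time, the lowest. Its gap to the nearest other library, as a share of the range of log2(value + 1) over the group, was 0.859 in XLOC_056759, 0.866 in XLOC_056750 and 0.885 in the third locus. Of 30 groups of 4 libraries looked at, 3 were found and chance gives about 1 in 20, or 1.5. The 3 loci lie close together in locus number and share the library, so they are not separate observations. Without non-injured replicate 2, limma still called all 3 falls at 7 dpci.

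The change against non-injured apexes was compared between 7 and 1.5 dpci, by limma's test of 7 against 1.5 dpci, in the loci named by number and in the third locus, and 4 of them passed. On the log2 scale the difference was 0.90 in XLOC_008118, -5.08 in XLOC_056759, -3.76 in XLOC_056750 and -3.87 in the third locus (adjusted p = 0.0074, 0.0022, 0.0182 and 0.00452, limma). Of the loci described without a number, 2 more passed this test, with differences of -1.82 and 1.94 (adjusted p = 0.000128 and 0.00652, limma). In edgeR XLOC_056759, XLOC_056750 and the third locus did not pass (adjusted p = 0.0711, 0.181 and 0.0622, edgeR).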

How the results depend on the processing

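No member called in the tests reported turned to a call in the opposite direction in any alternative run. Of the 60 rises at 1.5 dpci 52 were called in every alternative, of the 59 at 7 dpci 37, of the 38 at 14 dpci 18, and of the 3 falls at 7 dpci none. Set against non-injured replicates 1 and 2 alone, the 62 calls at 7 dpci became 37 and the 38 at 14 dpci became 20. At 14 against 7 dpci, the 4 calls became 1 with only the 8 libraries compared, 9 with quantile normalization and 8 with the minimum value. The causes were not tested. At 7 against 1.5 dpci, edgeR called 7 loci higher and 6 lower, in place of 8 and 10. Leaving out 1 of the 8 libraries compared gave 57 to 60 calls at 1.5 dpci, 53 to 62 at 7 dpci, 28 to 41 at 14 dpci, 2 to 8 at 14 against 7 dpci and 13 to 20 at 7 against 1.5 dpci. Leaving out 1 of the 20 gave 61 to 144 loci under the rule, with 57 to 79 of the 79 among them.

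Libraries share replicate numbers across groups, and the labels name no other link between them. Whether same-numbered libraries were handled together is not stated. Same-numbered libraries had correlations of deviations from -0.33 to 0.37, with 10 of 40 over 0.1. Out of the 4 numbers of the other group, a library's own number correlated best in 12 of 40, and nothing is read from that count. With the replicate number as a block the calls were 60 at 1.5 dpci, 64 at 7 dpci, 36 at 14 dpci, 4 at 14 against 7 dpci and 18 at 7 against 1.5 dpci.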
